A study of Rattus norvegicus with 16 samples.

Results

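The enzymes that make glucose and handle glycogen were followed in rat hepatoma H35 cells in which *Pdrg1* had been silenced. The members were taken by gene name on the array: *Pck1*, *Pck2*, *G6pc*, *Fbp1*, *Pc*, *Gys2*, *Pygl*, *Ppargc1a*, *Pdk4* and *Slc37a4*. All 10 were on the array, out of 26269 gene names, and they were read by 11 of its 30367 probes. Each member had 1 probe with 1 spot per array except *G6pc*, which had 2 such probes. H35 is an established line from a rat liver tumour, and *Pdrg1* encodes a small protein related to the prefoldins. RNA was measured on 16 one-color Agilent arrays, 4 biological replicates in each of 4 groups. CN-10 was a stable clone that carried a plasmid with a negative control shRNA, 3-44 was a stable clone with the shRNA3 plasmid and 4-18 was a stable clone with the shRNA4 plasmid. These 3 groups had been selected in G418 at 1.8 and then 4 mg/ml. The group shRNA3T was a pool of cells transfected with the shRNA3 plasmid and enriched in G418 at 1.8 mg/ml, and CN-10 served as its control too, so no pool with the control plasmid was compared. All 4 groups grew in the same medium with serum. Each stable group is 1 clone, so its 4 replicates share that clone and the tests describe these clones and this pool. In bulk RNA, a higher level per cell and a larger share of cells that express a gene cannot be told apart.

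Gluconeogenesis is the route by which liver cells build glucose from lactate, amino acids and glycerol. Pyruvate carboxylase (*Pc*) and the phosphoenolpyruvate carboxykinases (*Pck1* in the cytosol, *Pck2* in mitochondria) carry pyruvate around the irreversible step of glycolysis, fructose-1,6-bisphosphatase (*Fbp1*) reverses the phosphofructokinase step, and glucose-6-phosphatase (*G6pc*) frees glucose in the endoplasmic reticulum after the transporter *Slc37a4* has brought its substrate in. Liver glycogen synthase (*Gys2*) stores glucose and liver glycogen phosphorylase (*Pygl*) releases it. The coactivator PGC-1α (*Ppargc1a*) drives the transcription of *Pck1* and *G6pc* in fasted liver, where glucagon, through cAMP, and glucocorticoids raise the pathway and insulin lowers it. The kinase *Pdk4* switches off pyruvate dehydrogenase and so keeps pyruvate for glucose synthesis.

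The probes of 4 members on which the comparisons turn are shown first, because a single sequence of 60 bases stands for each gene here. The pair *Pck1* and *Pck2* is given to show that the isoenzymes were read separately: the longest run of bases their probes share is 9. Their positions on the rn4 build, as the array files give them, are chr3:164017597-164017656 for *Pck1*, chr15:33680356-33680415 for *Pck2*, chr10:90402888-90402947 for the second probe of *G6pc* and chr14:64365667-64365726 for *Ppargc1a*, all on the plus strand. No annotation of rn4 was used here, so exons are not stated.
Pck1: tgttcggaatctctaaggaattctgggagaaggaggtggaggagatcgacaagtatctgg
Pck2: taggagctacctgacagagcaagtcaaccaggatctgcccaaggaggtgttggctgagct
G6pc: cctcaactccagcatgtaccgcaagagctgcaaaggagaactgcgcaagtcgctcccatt
Ppargc1a: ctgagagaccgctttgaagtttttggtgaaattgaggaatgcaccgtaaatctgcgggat

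Promoters are shown because members of this pathway share hormone response elements and some of them moved together below. They are the 250 bases before the RefSeq start of each gene on GRCr8, written along the gene's strand. All 10 members were found in RefSeq by the transcript accession of their probe (*G6pc* is named *G6pc1* there) and 9 had a promoter entry. On both strands 5 motifs were searched: the cAMP response element TGACGTCA, its short site TGACG (which lies within the former, so that these overlap), the forkhead insulin response site CAAAACA, the nuclear receptor half-site AGGTCA and the TATA box TATAAA. Capitals mark every match. The positions are chr10:86807409-86807658 on the plus strand for *G6pc*, chr3:182348322-182348571 on the plus strand for *Pck1*, chr4:177137237-177137486 on the minus strand for *Gys2*, chr14:63634058-63634307 on the plus strand for *Ppargc1a* and chr17:2213457-2213706 on the plus strand for *Fbp1*.
G6pc: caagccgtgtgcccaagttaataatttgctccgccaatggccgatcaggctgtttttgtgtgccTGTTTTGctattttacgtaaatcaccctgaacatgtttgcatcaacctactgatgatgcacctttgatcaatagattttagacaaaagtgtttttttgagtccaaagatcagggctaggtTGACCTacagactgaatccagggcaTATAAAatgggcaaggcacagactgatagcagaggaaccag
Pck1: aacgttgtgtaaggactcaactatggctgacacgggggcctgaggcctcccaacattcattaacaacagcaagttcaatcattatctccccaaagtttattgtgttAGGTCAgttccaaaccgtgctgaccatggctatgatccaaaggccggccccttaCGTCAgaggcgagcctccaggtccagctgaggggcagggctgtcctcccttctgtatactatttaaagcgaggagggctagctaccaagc
Gys2: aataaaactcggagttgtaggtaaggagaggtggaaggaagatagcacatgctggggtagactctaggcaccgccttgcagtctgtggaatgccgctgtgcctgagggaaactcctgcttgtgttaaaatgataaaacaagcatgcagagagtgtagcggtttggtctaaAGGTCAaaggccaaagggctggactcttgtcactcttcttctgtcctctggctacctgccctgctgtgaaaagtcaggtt
Ppargc1a: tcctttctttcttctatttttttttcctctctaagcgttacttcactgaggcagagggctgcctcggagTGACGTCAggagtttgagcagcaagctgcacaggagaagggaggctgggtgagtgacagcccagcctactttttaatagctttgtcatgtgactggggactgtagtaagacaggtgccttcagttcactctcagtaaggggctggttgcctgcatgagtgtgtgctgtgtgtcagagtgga
Fbp1: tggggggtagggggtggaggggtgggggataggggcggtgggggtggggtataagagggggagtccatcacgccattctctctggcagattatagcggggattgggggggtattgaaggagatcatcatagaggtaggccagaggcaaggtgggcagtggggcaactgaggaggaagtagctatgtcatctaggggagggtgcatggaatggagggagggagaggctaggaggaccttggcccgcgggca

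The full cAMP response element was found in the window of *Ppargc1a* alone among the members, 181 bases before the start, and in 1.59% of all 33469 promoter windows of this length. The short site was in 4 of the 10 member windows (*Slc37a4* has 2 overlapping windows) against 18.2% of all, and in *Pck1* it began 90 bases before the start. The forkhead site was in the *G6pc* window only, 186 bases before the start, against 5.46% of all windows. The nuclear receptor half-site was in the windows of *G6pc*, *Pck1* and *Gys2* against 14.1% of all. The TATA box of these letters was in the *G6pc* window only, against 12.9% of all. The *Fbp1* window held none of these letters. These are matches of letters and say nothing of binding.

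The arrays set some limits. Between 53.1% and 74.3% of gene spots per array were well above background and no gene spot was saturated. The arrays of 4-18 were the dimmest, with a 75th percentile of spot intensity of 1613 to 1878 against 2290 to 3647 in the other groups. A slide carried the arrays of a single group, and a slide effect cannot be told apart from a group effect. On the normalized log2 scale *Pdrg1* averaged 13.64 ± 0.22 over the control arrays, 12.87 ± 0.87 for 4-18, 12.65 ± 0.51 for 3-44 and 12.79 ± 0.27 for shRNA3T (SD, n = 4 each). Every silenced array lay below the control arrays (p = 0.0286 per group by two-sided exact permutation, the lowest possible with 4 arrays a side), and the adjusted p by limma was 0.129, 0.105 and 0.143. In each of the 4 groups, CN-10 included, replicate 1 was the lowest in *Pdrg1*, and several values of the members also stood apart on replicate 1, as given beside them. In 4-18 *Pdrg1* was 11.57 on replicate 1 and 13.25 to 13.34 on the others, against 13.41 to 13.88 in CN-10. Of 10 hepatocyte markers, 9 were detected (well above background on each of a group's arrays) in CN-10, 3-44 and shRNA3T and 8 in 4-18, and their summed log2 level ranged from 18.72 to 19.16 in CN-10, from 18.36 to 18.97 in 4-18, from 18.43 to 19.64 in 3-44 and from 18.97 to 19.35 in shRNA3T. Of 6 fibroblast or stellate cell markers, 4 were so detected in CN-10, 3-44 and shRNA3T and 1 in 4-18, with a summed log2 level between 9.85 and 10.22 over the 16 arrays. The part of cell type in the results was not tested.

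Normalized log2 intensities were compared with limma, and a gene was called when it changed at least 2-fold with a Benjamini-Hochberg adjusted p under 0.05 over all probes. In 4-18, 4 of the 10 members were called against CN-10, all higher: *Gys2*, *Ppargc1a*, *G6pc* and *Fbp1*. Over all genes 6.15% were called in that comparison, 2.62% higher and 3.54% lower. That balance depended on the scaling: in deposited values not scaled between arrays, far more were called lower than higher (closing section). In 3-44, 3 members were called, all higher: *G6pc*, *Pck2* and *Pck1*, beside 1.47% of all genes, 0.685% higher and 0.788% lower. In shRNA3T, 3 members were called, all higher: *G6pc*, *Pck1* and *Gys2*, beside 2.39% of all genes, 1.2% higher and 1.19% lower. *G6pc* was the only member called higher in all 3 comparisons, beside 0.198% of genes (52 of 26268). No member was called lower than CN-10 on this scale. The median log2 fold change of the 10 members was 0.46 in 4-18, 0.18 in 3-44 and 0.18 in shRNA3T, against 0.00, -0.01 and -0.01 over all genes. The 3 comparisons share the 4 arrays of CN-10, so they do not give separate evidence. In the deposited values that had not been scaled between arrays, the values of the dim 4-18 arrays against CN-10 were smaller (1.23 for *G6pc* and 1.04 for *Fbp1*) and still called, and *Pck1* and *Pck2* were called lower there. In those values replicate 4 of 4-18 stood apart, with a median of 8.76 against 6.74 to 7.05 on the other arrays of that clone; the calls of *Pck1* and *Pck2* in 3-44 that they lose, given below, were kept when this array was left out.

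**Figure D1:**
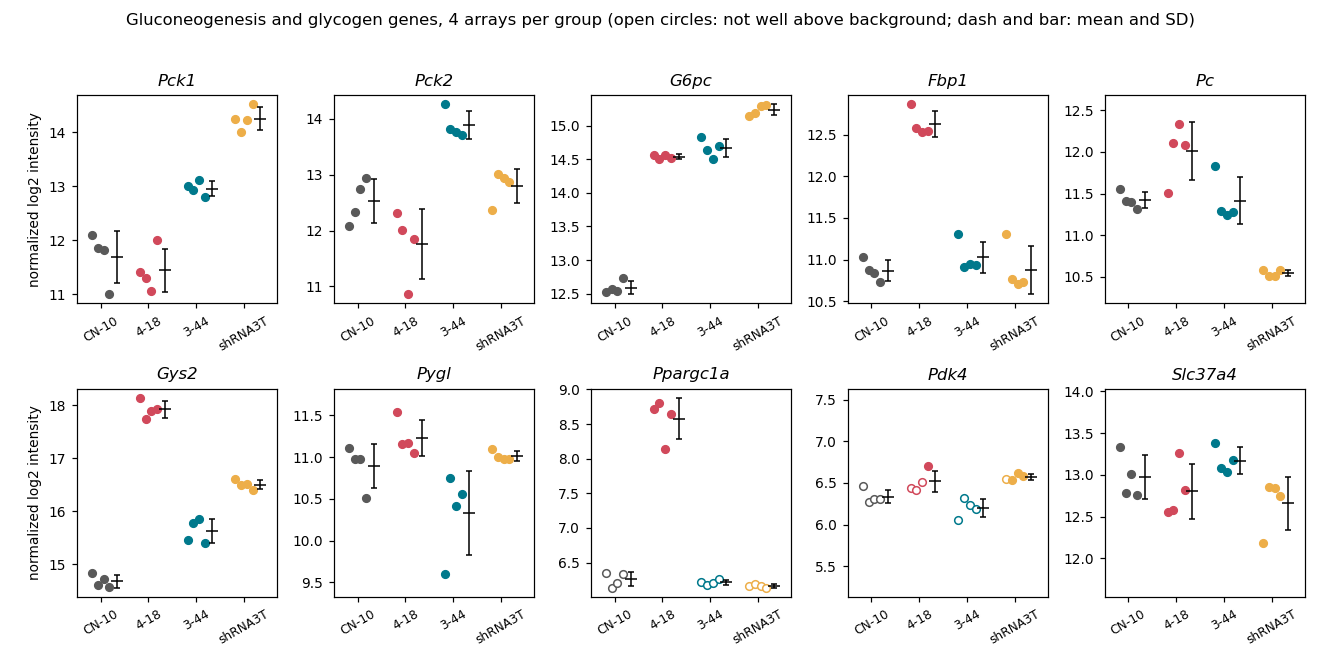
Normalized log2 intensity (vertical axis) of each member on the 4 arrays of each group (horizontal axis), read by the probe with the highest mean; filled circles are well above background, open circles are not, and the dash and bar give the mean and SD. G6pc stands above CN-10 on all 12 silenced arrays, Gys2 is highest in 4-18, and Ppargc1a leaves the background in 4-18 alone.

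The catalytic subunit of glucose-6-phosphatase was higher in every silenced group. *G6pc* rose 3.86-fold in 4-18, 4.22-fold in 3-44 and 6.25-fold in shRNA3T. Its normalized log2 intensity on the probe with the higher mean (A_44_P330342, chr10:90403940-90403999 on rn4) was 12.53, 12.56, 12.54 and 12.73 on the arrays of CN-10. It was 14.57, 14.50, 14.56 and 14.51 in 4-18, 14.83, 14.63, 14.51 and 14.69 in 3-44, and 15.14, 15.19, 15.29 and 15.31 in shRNA3T. The 12 silenced arrays lay above the 4 of CN-10, and the pool lay above both clones. The log2 fold changes against CN-10 were 1.95, 2.08 and 2.64, each with a standard error of 0.08 and an adjusted p by limma of 1.97e-10, 3.92e-10 and 2.96e-11. The second probe of *G6pc*, whose sequence is printed above, shares no run longer than 6 bases with the first and gave 2.11, 2.01 and 2.66 with a standard error of 0.26. Its own levels were 8.41 to 9.18 in CN-10, 10.73 to 11.23 in 4-18, 10.00 to 11.52 in 3-44 and 11.37 to 11.70 in shRNA3T, and here too no silenced array overlapped the control. Between the clones *G6pc* differed by -0.13 (4-18 minus 3-44, 95% interval -0.29 to 0.04, adjusted p = 0.267 by limma). On the first probe shRNA3T was 1.62-fold above 4-18 and 1.48-fold above 3-44 with no overlap of arrays, which is under the 2-fold limit (adjusted p = 1.28e-05 and 0.000207 by limma), and on the second probe these differences had an adjusted p of 0.170 and 0.143. In the unscaled deposited values 4-18 was below shRNA3T by more on the first probe (log2 difference -1.38) and this was called (adjusted p = 0.000404 by limma). The order of levels was therefore CN-10 below both clones, which were not separated, and shRNA3T above them on the first probe.

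No change of the transporter that feeds glucose-6-phosphatase passed the test. *Slc37a4* lay between 12.76 and 13.33 in CN-10 and read 12.55, 12.58, 13.27 and 12.82 in 4-18, 13.39, 13.08, 13.03 and 13.18 in 3-44, and 12.18, 12.86, 12.85 and 12.75 in shRNA3T. The silenced groups overlapped the control on this gene. The log2 fold changes were -0.17, 0.20 and -0.31 with a standard error of 0.18. On this scale their 95% intervals (-0.56 to 0.23, -0.19 to 0.59 and -0.71 to 0.08) stayed within a 2-fold change in either direction. Over all alternatives the value of 4-18 against CN-10 ranged from -0.95 to 0.11, so it depended on the processing. In the unscaled deposited values 4-18 was at -1.02 against 3-44, which was called (adjusted p = 0.0225 by limma).

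The cytosolic carboxykinase *Pck1* rose in both groups with the shRNA3 plasmid, and its level in the shRNA4 clone was below both. Its log2 intensity was 12.10, 11.85, 11.82 and 11.01 in CN-10, where replicate 4 was low. It was 11.41, 11.29, 11.06 and 12.01 in 4-18, 12.99, 12.93, 13.11 and 12.79 in 3-44, and 14.25, 14.00, 14.22 and 14.51 in shRNA3T. The arrays of 4-18 fell among those of CN-10, whereas 3-44 lay wholly above both and shRNA3T wholly above 3-44. *Pck1* was 2.40-fold higher than CN-10 in 3-44 (log2 fold change 1.26, standard error 0.22, adjusted p = 0.00204 by limma) and 5.87-fold higher in shRNA3T (2.55, standard error 0.22, adjusted p = 2.56e-06 by limma). In 4-18 the log2 fold change was -0.25 with a 95% interval of -0.72 to 0.22 (adjusted p = 0.478 by limma). That value depended on the scaling: it was 0.06 with each array scaled to its 75th percentile, and -1.0 and called lower in the unscaled deposited values (adjusted p = 0.0204 by limma). Set directly against each other, 4-18 was 2.86-fold below 3-44 (adjusted p = 0.00014 by limma) and 6.98-fold below shRNA3T (adjusted p = 4.78e-07), and 3-44 was 2.45-fold below shRNA3T (adjusted p = 0.00136). The rise in 3-44 was not called in the deposited values that had not been scaled between arrays (log2 fold change 1.14, adjusted p = 0.0757 by limma).

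The mitochondrial isoenzyme *Pck2* was highest in 3-44. It read 12.08, 12.34, 12.75 and 12.95 in CN-10, 12.31, 12.02, 10.86 and 11.84 in 4-18, 14.26, 13.82, 13.76 and 13.71 in 3-44, and 12.36, 13.01, 12.95 and 12.88 in shRNA3T. Every array of 3-44 lay above every array of the other groups, and replicate 3 of 4-18 was the lowest of all 16. *Pck2* was 2.56-fold higher than CN-10 in 3-44 (log2 fold change 1.36, standard error 0.27, adjusted p = 0.0056 by limma). Against CN-10 the log2 fold change was 0.27 in shRNA3T (95% interval -0.31 to 0.85, adjusted p = 0.663) and -0.77 in 4-18 (95% interval -1.35 to -0.19, adjusted p = 0.0538). *Pck1* and *Pck2* thus had different orders of groups: the pool with shRNA3 was highest in *Pck1* and the clone with shRNA3 was highest in *Pck2*. The clone 4-18 was 4.37-fold below 3-44 (adjusted p = 4.48e-05) and 2.06-fold below shRNA3T (adjusted p = 0.0129), and 3-44 was 2.13-fold above shRNA3T (adjusted p = 0.0178). The call of 4-18 against shRNA3T was lost without replicate 3 of 4-18 (log2 fold change -0.74) or without replicate 2 (-0.97) or 3 (-0.99) of shRNA3T. The call of 3-44 against shRNA3T was lost without replicate 1 of 3-44 (0.96) or of shRNA3T (0.94). It was also lost with 75th-percentile scaling, with array weights and without replicate 1 of every group. The unscaled deposited values lost it too, with or without replicate 4 of 4-18. Its lowest value over all alternatives was 0.82. Scaling also bore on *Pck2*: against CN-10 the value in 3-44 was 1.31 in the unscaled deposited values and not called (adjusted p = 0.115 by limma). It was 0.86 when each array was scaled to its 75th percentile, under the 2-fold limit, and the value in 4-18 was then -1.46 and called (adjusted p = 0.000109 by limma).

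**Figure D2:**
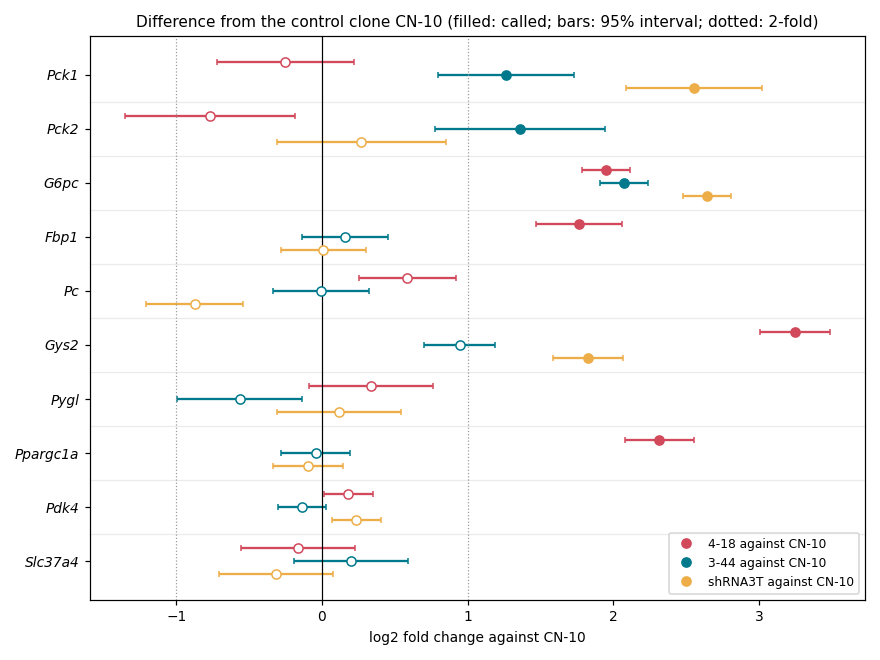
Log2 fold change of each member against CN-10 (horizontal axis) with its 95% interval in the limma model; filled points were called, open points were not, and dotted lines mark 2-fold. G6pc is the only row with 3 filled points, at 1.95, 2.08 and 2.64; Pck1 is filled in 3-44 and shRNA3T, and Fbp1 and Ppargc1a in 4-18 alone.

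*Fbp1* rose in 4-18 only. It read 11.03, 10.87, 10.84 and 10.73 in CN-10 and 12.87, 12.58, 12.54 and 12.54 in 4-18, against 11.31, 10.91, 10.94 and 10.94 in 3-44 and 11.31, 10.76, 10.71 and 10.72 in shRNA3T. The arrays of 4-18 stood above all others, and replicate 1 was the highest array of each of the 4 groups. The rise was 3.40-fold (log2 fold change 1.76, standard error 0.14, adjusted p = 2.87e-07 by limma). Leaving out any 1 array gave 1.69 to 1.82. The log2 fold changes in 3-44 and shRNA3T were 0.16 (95% interval -0.13 to 0.45) and 0.01 (-0.28 to 0.30). *Fbp1* was 3.04-fold higher in 4-18 than in 3-44 and 3.37-fold higher than in shRNA3T (adjusted p = 8.43e-07 and 4.49e-07 by limma). In the unscaled deposited values the first of these was 0.97 on the log2 scale, under the 2-fold limit, and the second was 1.01 and still called.

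*Pc*, at the entry of the pathway, was not called against CN-10 in any group, yet its extremes were apart. It read 11.55, 11.41, 11.40 and 11.32 in CN-10, 11.51, 12.10, 12.33 and 12.08 in 4-18, 11.83, 11.29, 11.25 and 11.28 in 3-44, and 10.58, 10.51, 10.52 and 10.58 in shRNA3T. All arrays of shRNA3T lay below all others. Against CN-10 the pool was 1.83-fold lower (log2 fold change -0.87, standard error 0.15, adjusted p = 0.00147 by limma), short of the 2-fold limit, and 4-18 was 1.5-fold higher (0.59, adjusted p = 0.0118) with replicate 1 inside the control range. The value of 4-18 was 0.30 with 75th-percentile scaling (adjusted p = 0.143 by limma) and -0.10 in the unscaled deposited values (adjusted p = 0.782). In 3-44 the log2 fold change was -0.01 (95% interval -0.34 to 0.32). The difference between 4-18 and shRNA3T was 2.75-fold and was called (adjusted p = 8.82e-06 by limma), although with 75th-percentile scaling it was 0.89 on the log2 scale and in the unscaled values 0.73 (adjusted p = 0.065 by limma), and called in neither. The pool therefore had the lowest *Pc* and the highest *Pck1* and *G6pc*.

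Glycogen synthase showed the largest change against CN-10 among the 8 members detected on all arrays. *Gys2* read 14.84, 14.61, 14.72 and 14.57 in CN-10, 18.14, 17.74, 17.90 and 17.93 in 4-18, 15.46, 15.79, 15.86 and 15.40 in 3-44, and 16.61, 16.49, 16.51 and 16.41 in shRNA3T. No group overlapped another, and the order was CN-10, 3-44, shRNA3T and 4-18. *Gys2* was 9.49-fold higher than CN-10 in 4-18 (log2 fold change 3.25, standard error 0.11, adjusted p = 5.94e-11 by limma) and 3.54-fold higher in shRNA3T (1.82, standard error 0.11, adjusted p = 9.40e-08). In 3-44 it was 1.93-fold higher (0.95, adjusted p = 8.95e-05), just under the fold limit, and without replicate 1 or replicate 4 of 3-44 it reached 1.00 and 1.02 and was called. The mean spot signal before normalization was already 188605 to 208598 in 4-18, whose arrays were the dimmest, against 27396 to 34943 in CN-10, 39751 to 78419 in 3-44 and 99759 to 127175 in shRNA3T. Between silenced groups 4-18 was 4.93-fold above 3-44 and 2.68-fold above shRNA3T (adjusted p = 2.31e-09 and 5.30e-07 by limma), and 3-44 was 1.84-fold below shRNA3T (adjusted p = 0.000129). In the unscaled deposited values 4-18 was 0.88 above shRNA3T on the log2 scale, under the 2-fold limit (adjusted p = 0.0207 by limma).

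The enzyme of the opposite direction, *Pygl*, was not called in any of the 6 comparisons. It read 11.10, 10.98, 10.98 and 10.52 in CN-10, 11.54, 11.16, 11.17 and 11.05 in 4-18, 9.60, 10.75, 10.42 and 10.56 in 3-44, and 11.10, 11.00, 10.98 and 10.98 in shRNA3T. The log2 fold changes against CN-10 were 0.34 (95% interval -0.09 to 0.76), -0.57 (-0.99 to -0.14, adjusted p = 0.113 by limma) and 0.12 (-0.31 to 0.54). The clone 4-18 lay above 3-44 on all arrays, by 1.87-fold (adjusted p = 0.00417 by limma), and without replicate 2 of 3-44 this difference was called (log2 fold change 1.04).

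*Ppargc1a* left the background in 4-18 alone. The software marked it as detected on the 4 arrays of 4-18 and on none of the 12 others. Its log2 intensity was 8.71, 8.81, 8.15 and 8.65 in 4-18, against 6.35, 6.14, 6.21 and 6.34 in CN-10, 6.23, 6.18, 6.20 and 6.26 in 3-44, and 6.16, 6.20, 6.16 and 6.14 in shRNA3T. The level in the other groups is a bound, so the difference is stated as at least 4.72-fold against CN-10, 4.77-fold against 3-44 and 4.76-fold against shRNA3T (adjusted p = 1.62e-09, 1.64e-09 and 1.68e-09 by limma). On each array the bound was the dimmest signal that counted as detected, or the probe's own where that was higher. The mean spot signal was 200 to 334 in 4-18 and 50.2 to 69.1 elsewhere. The promoter printed above is the one with the full cAMP response element. Of the 2 members named above as its targets in liver, *G6pc* rose in the same clone (log2 fold change 1.95) and *Pck1* was at -0.25. Where *Ppargc1a* was not detected, *G6pc* and *Pck1* rose by 2.08 and 1.26 in 3-44 and by 2.64 and 2.55 in shRNA3T. A link between these levels was not tested. With each array scaled to its 75th percentile the log2 fold change of *Ppargc1a* against CN-10 was 6.40, a value that rests on signals at background in the control.

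*Pdk4* lay near background in all groups. It was well above background on 1 array of 4-18, on 3 of shRNA3T and on none of the others. It read 6.46, 6.28, 6.30 and 6.31 in CN-10, 6.44, 6.42, 6.51 and 6.71 in 4-18, 6.06, 6.32, 6.24 and 6.19 in 3-44, and 6.55, 6.54, 6.61 and 6.59 in shRNA3T. The pool lay above CN-10 on every array. The level in CN-10 is a bound, and the difference is stated as at least 1.16-fold (adjusted p = 0.0693 by limma). With the 2-fold limit no comparison of *Pdk4* was called, except under 75th-percentile scaling, which leaves background signals unbounded. There 4-18 was called higher than CN-10 (1.55) and 3-44 (1.49). Without a fold limit 3-44 was called below 4-18 (adjusted p = 0.00869 by limma). No size is given for this difference, because 4-18 too was mostly not above background. Without that limit 3-44 was also called below shRNA3T (at least 1.20-fold, adjusted p = 0.00626 by limma).

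Whether the silenced groups differed among themselves was tested directly, without CN-10. Of the 10 members, 5 were called between 4-18 and 3-44 (beside 4.98% of all genes): *Gys2*, *Ppargc1a* and *Fbp1* were higher in 4-18 and *Pck1* and *Pck2* were lower. Between 4-18 and shRNA3T 6 were called (beside 4.56% of all genes), the same 5 in the same directions and *Pc*, which was higher in 4-18. Between 3-44 and shRNA3T, which carry the same shRNA plasmid, 2 were called (beside 2.12% of all genes): *Pck1* was lower and *Pck2* higher in 3-44. This call of *Pck2* was lost under several alternatives, as given above. The plasmid and the clone cannot be told apart in 4-18, which is the only group with shRNA4.

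**Figure D3:**
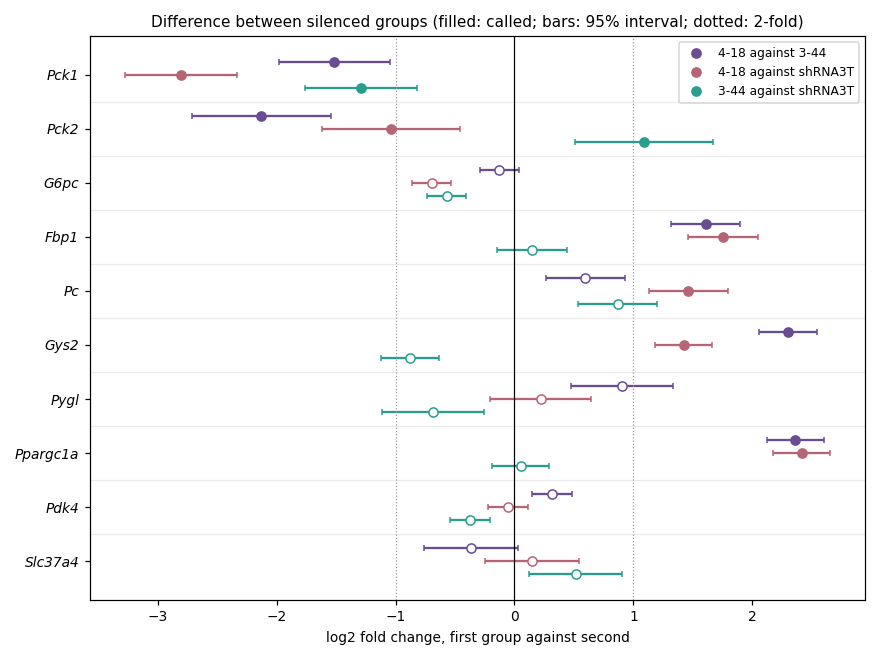
Log2 fold change of each member between silenced groups (horizontal axis, first group against second) with its 95% interval; filled points were called and dotted lines mark 2-fold. Pck1 and Pck2 lie to the left for both comparisons of 4-18, and Fbp1, Gys2 and Ppargc1a lie to the right; 3-44 against shRNA3T has filled points for Pck1 (-1.29) and Pck2 (1.09) only.

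The calls among the other enzymes of gluconeogenesis and glucose output were all in the higher direction. Of 19 such genes on the array, 4 were higher in 4-18, 2 in 3-44 and 2 in shRNA3T, beside 2.62%, 0.685% and 1.2% of all genes, and none was lower. Their median log2 fold change was 0.47, 0.25 and 0.24. *Fbp2*, the muscle isoenzyme of fructose-1,6-bisphosphatase, rose in 4-18 as *Fbp1* did (1.92) and not in 3-44 (0.25) or shRNA3T (-0.48), and the 2 probes share at most 5 bases in a row. The glucose transporter *Slc2a2* was called in 3-44 (1.22, adjusted p = 3.62e-05 by limma), with 0.95 in 4-18 and 0.13 in shRNA3T. The value in 4-18 missed only the 2-fold limit (adjusted p = 7.23e-05 by limma). Between the clones *Slc2a2* differed by -0.26 (4-18 minus 3-44), which was not called (adjusted p = 0.174 by limma). *Gpd1*, which links glycerol to the pathway, was called in shRNA3T (1.47, adjusted p = 0.00159), with 0.47 and 0.34 in 4-18 and 3-44.

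Of 26 other glycogen genes on the array, 2 were called higher in 4-18 (beside 2.62% of all genes) and none in 3-44 or shRNA3T, with medians of 0.14, 0.02 and 0.08. The lysosomal glucosidase *Gaa* rose in 4-18 by 1.72 on the log2 scale (adjusted p = 2.27e-05 by limma), with -0.01 in 3-44 and 0.80 in shRNA3T. *Phkg2*, the catalytic subunit of liver phosphorylase kinase, rose in 4-18 by 1.04 (adjusted p = 0.000549), with 0.24 and 0.42 in the others.

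Of 26 enzymes that oppose the pathway or belong to the pyruvate dehydrogenase switch, 4 were higher and 1 lower in 4-18, none was called in 3-44 and 2 were higher in shRNA3T. Over all genes, too, the share called was highest in 4-18 (6.15%, against 1.47% and 2.39%). The medians were 0.24, 0.12 and 0.06. *Gckr*, the regulator that holds glucokinase in the nucleus, rose in 4-18 by 3.30 on the log2 scale (adjusted p = 1.83e-09 by limma), with 0.40 and 0.42 in 3-44 and shRNA3T. The phosphofructokinases *Pfkp* (1.82) and *Pfkm* (1.46), which act against *Fbp1*, rose in the same clone (adjusted p = 9.94e-08 and 3.63e-07). So *Fbp1* and *Fbp2* and the opposing *Pfkp* and *Pfkm* were all called higher in 4-18. A further phosphofructokinase, *Pfkl*, was at 0.95 there, under the 2-fold limit (adjusted p = 0.000431 by limma). *Pfkp* lay near background outside 4-18, with a mean of 6.53 in CN-10 and 3 of its 4 arrays well above background. Its 1.82 is therefore not a firm size. *Pfkm* was dim in CN-10 too (mean 6.99), though well above background on all 4 arrays. *Pdp2*, a phosphatase that reactivates pyruvate dehydrogenase, was called in shRNA3T (1.26, adjusted p = 0.0127), with 0.62 in 4-18 and 0.79 in 3-44, and its differences from these were not called (adjusted p = 0.164 and 0.345 by limma).

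Among 42 regulators of gluconeogenic transcription, 3 were higher and 2 lower in 4-18, none was called in 3-44, and 1 was higher and 1 lower in shRNA3T, with medians of 0.22, 0.07 and 0.09. The share called was 11.9%, 0% and 4.76% of the list, beside 6.15%, 1.47% and 2.39% of all genes. *Trib3*, an inhibitor of insulin signalling through AKT, fell in 4-18 by 1.71 on the log2 scale (adjusted p = 1.97e-06 by limma), with -0.75 in 3-44 and -0.80 in shRNA3T. *Creb3l3*, a liver transcription factor active in fasting, rose in 4-18 (1.36, adjusted p = 3.11e-06) and shRNA3T (1.68, adjusted p = 1.30e-06), with 0.84 in 3-44. *Irs2*, an insulin receptor substrate, fell in 4-18 by 1.42 (adjusted p = 0.000168), with -0.08 in 3-44 and 0.93 in shRNA3T. The nuclear receptor *Nr4a1*, which responds to glucagon in liver, fell in shRNA3T by 1.48 (adjusted p = 1.86e-05), with 0.12 in 4-18 and -0.77 in 3-44. The uncalled values of *Trib3* in 3-44 and shRNA3T missed only the 2-fold limit (adjusted p = 0.00883 and 0.00377 by limma). So did those of *Creb3l3* in 3-44 (0.000968), *Irs2* in shRNA3T (0.00898) and *Nr4a1* in 3-44 (0.00637).

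Of 19 further liver genes known to respond to glucocorticoid, cAMP or fasting, 5 were higher and 2 lower in 4-18, 2 were higher in 3-44 and 5 were higher in shRNA3T, with medians of 0.21, 0.01 and 0.20. The share called was 36.8%, 10.5% and 26.3% of the list, beside 6.15%, 1.47% and 2.39% of all genes. *Angptl4*, a fasting-induced inhibitor of lipoprotein lipase, rose in all 3 groups, by 2.68, 1.79 and 3.91 on the log2 scale (adjusted p = 2.80e-07, 7.15e-05 and 1.89e-08 by limma). *Igfbp1*, an insulin-repressed secreted protein, rose in 4-18 (1.29) and shRNA3T (1.99), with 0.65 in 3-44. *Cyp4a1*, a fatty acid hydroxylase induced through PPARα, was called in shRNA3T (1.57, adjusted p = 0.000511), with -0.35 in 4-18 and 0.18 in 3-44. In 4-18 it was near background, well above it on only 2 of 4 arrays, so -0.35 is not a measured size. The 2 genes called lower in 4-18 were the glucocorticoid-induced *Tsc22d3* (by 1.39) and *Fkbp5* (by 1.11), named after their values were seen. In 3-44 and shRNA3T, where neither was called, *Tsc22d3* was at -0.45 and -0.43. *Fkbp5* was at -0.41 in 3-44 and at -0.78 in shRNA3T (adjusted p = 0.000687 by limma for the latter).

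**Figure D4:**
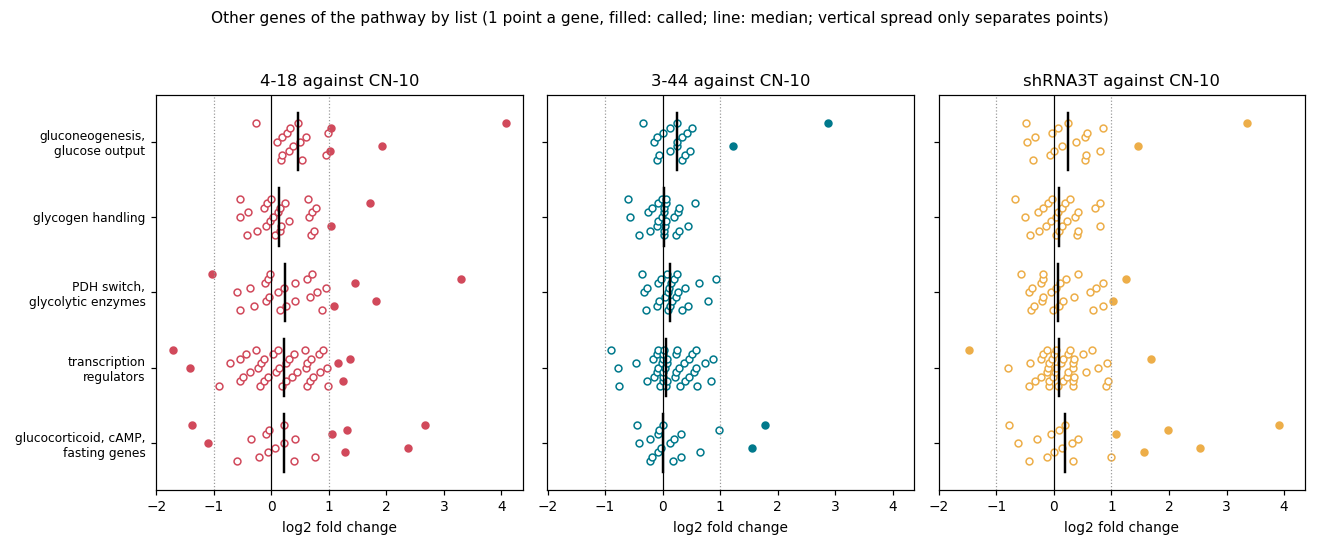
Log2 fold change against CN-10 (horizontal axis) of every gene of the 5 lists around the members, 1 panel per silenced group; each point is a gene, filled where called, and the black line is the median of its list. The medians lie between 0.01 and 0.47, and the filled points toward the right include Gckr (3.30) in 4-18 and Angptl4 (3.91) in shRNA3T.

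Genes whose levels ran most like those of the 4 members with the largest changes among those detected on all arrays were found by Pearson r over the 16 arrays, among 11079 genes well above background on every array. The arrays fall into 4 groups, so r mostly follows the group means. For *Gys2* these were *Abcb4* (r = 0.983), *Gcnt3* (0.981) and *Mettl7a* (0.980), against a median r of 0.06 over all genes. *Gcnt3* rose by 2.92 on the log2 scale in 4-18 and 1.43 in shRNA3T and had 0.99 in 3-44, the same order of groups as *Gys2*. For *G6pc* they were *Srgap2* (0.967), *Aldoc* (0.967) and *Serpinf2* (0.966). *Aldoc*, the brain aldolase, rose by 5.55, 5.38 and 5.74 in 4-18, 3-44 and shRNA3T. For *Pck1* they were *Cyp2c23* (0.953), *Serpina3n* (0.952) and *Acad11* (0.942), and *Serpina3n* rose by 2.53 in 3-44 and 4.68 in shRNA3T with -0.34 in 4-18. For *Fbp1* they were RGD1305007 (0.984), an unnamed gene read by probe A_64_P054225 (0.983) and *Gpbp1* (0.983). Between members, *Pck1* and *Pc* had r = -0.82.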

How the data were processed

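Spots were read by the authors' scanner software, Feature Extraction 10.7.3.1. Its deposited intensity values (linear and not normalized) hold, per spot, the mean and median brightness and a local background. Its processed signal, also an intensity per the file headers, had background and within-array trends removed but was left unscaled across arrays. Of a second table that the authors deposited, the decimal points were missing. Once restored, its entries matched log2 of normexp-corrected median signals (offset 50) to within 3.99e-11, again without scaling. By its methods the study corrected and normalized with limma and called genes at 2-fold and a false discovery rate under 0.05. Which correction and normalization it used there is not given in the sources used here.

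Background was corrected with normexp (offset 50) on the mean signal, control spots were dropped, quantile normalization followed, outlier spots were set aside and spots of a probe were averaged. Quantile normalization gives every array the same distribution, so values are relative to the array as a whole. One mean per group was fitted to the 16 arrays with lmFit and eBayes (limma 3.58.1, R 4.3.3), and p-values were adjusted over all probes. Of several probes, the brightest over the 16 arrays stands for the gene. For a group in which no array detected the probe, the fold is given as at least the ratio to the lowest detected signal. Only the fit and the calls were tested on simulated data, drawn as normalized values without array or slide effects. Of 200 probes changed by more than 2-fold among 29317, 195, 197 and 195 were recovered for 4-18, 3-44 and shRNA3T against CN-10. Wrong calls were 3, 1 and 2. Background correction, normalization and spot averaging were not part of this test, so it cannot show how scaling bears on the calls. Named are all members, up to 4 called genes of each surrounding list by size of change, and the 3 genes most like each of 4 members. Got2, Gpi and other called list genes beyond these are counted and not named in the report, apart from Tsc22d3 and Fkbp5. Some list genes that this rule names are counted but not reported here. The members and the lists were chosen with earlier results of these data known. Promoters come from RefSeq on GRCr8 and probe positions from the array files on rn4. The deposited files do not give the number of cells or molecules behind a spot, and the number of arrays limits the precision. Alternatives tried are given in the closing section.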

Additional observations from a re-analysis of the deposited data

Results flagged for a closer look

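Single arrays stood apart from the other 3 of their group in 5 of 44 tests of a probe and group, where chance alone marks about 1 in 20, and all 5 were replicate 1. The measure is the gap to the nearest array as a share of the range of the group. It was 0.863 for *Fbp1* in 4-18 (replicate 1 at 12.87, the highest), 0.913 for *Fbp1* in 3-44 (11.31, the highest), 0.912 for *Fbp1* in shRNA3T (11.31, the highest), 0.923 for *Pc* in 3-44 (11.83, the highest) and 0.840 for *Slc37a4* in shRNA3T (12.18, the lowest). *Pdrg1* was lowest on replicate 1 in each of the 4 groups, CN-10 included. Any link between these values was not tested.

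The level of a member differed between silenced groups by the direct limma test in 13 cases, each with at least a 2-fold difference and an adjusted p under 0.05. For *Pck1* the log2 difference was -1.51 for 4-18 minus 3-44, -2.80 for 4-18 minus shRNA3T and -1.29 for 3-44 minus shRNA3T. For *Pck2* these were -2.13, -1.04 and 1.09. For *Fbp1* 4-18 differed by 1.61 from 3-44 and by 1.75 from shRNA3T, and for *Gys2* by 2.30 and 1.42. For *Ppargc1a* the fitted differences were 2.36 and 2.41, but 3-44 and shRNA3T were not well above background, so these are not measured sizes, and the bounds are at least 4.77-fold and 4.76-fold. For *Pc* 4-18 differed from shRNA3T by 1.46. In all of these the groups were also separate slides, and slide and group cannot be told apart.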

How the results depend on the processing

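Over 30 alternative settings, 60 differences of a member between 2 groups gave 1674 values: 1600 kept their direction and their side of the limits, 20 lost a call, 18 gained one and 36 changed sign. None of the 23 called differences changed sign, and 16 of them were called under every alternative run. In 3-44 against CN-10 the call of *Pck2* was lost with 75th-percentile scaling (0.86) and in the unscaled deposited values (1.31, adjusted p = 0.115 by limma), as was that of *Pck1* in the latter (0.0757), which left 1 called member, *G6pc*. The unscaled values also lost *Fbp1* in 4-18 against 3-44 (0.97), and *Gys2* (0.88) and *Pc* (0.73) in 4-18 against shRNA3T. Over the alternatives, called members were 4 to 6 in 4-18, 1 to 4 in 3-44 and 3 to 4 in shRNA3T against CN-10. For 4-18 they were 5 to 7 against shRNA3T and 5 to 8 against 3-44, with 8 at no fold limit (beside 22.5% of all genes). For 3-44 against shRNA3T they were 5 at a 1.5-fold limit (share of genes not counted) and 7 with none (beside 10.9%). They were 1 with 75th-percentile scaling, array weights or unscaled values (with or without replicate 4 of 4-18). The same held without replicate 1 of every group (chosen after seeing the data). Leaving out 1 array gave 1 to 2.

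Changes of sign were in uncalled values. With 75th-percentile scaling they were *Pck1* (0.062) and *Slc37a4* (0.11) in 4-18, *Pc* (0.025), *Pdk4* (0.060) and *Slc37a4* (-0.0010) in 3-44 and *Pck2* (-0.048) in shRNA3T, all against CN-10. With the same scaling they were *Slc37a4* in 4-18 against 3-44 (0.11), *Pygl* (-0.24) and *Pdk4* (0.62) in 4-18 against shRNA3T, and *Ppargc1a* in 3-44 against shRNA3T (-0.062). In the unscaled deposited values they were *Pc* (-0.10) and *Pygl* (-0.36) in 4-18 against CN-10, *Pc* in 4-18 against 3-44 (-0.019), and *Pygl* (-0.48), *Pdk4* (0.45) and *Slc37a4* (-0.61) in 4-18 against shRNA3T. With replicate 4 of 4-18 left out of the unscaled values, a setting chosen after seeing that it stood apart there, they were *Pc* (-0.14), *Pygl* (-0.37) and *Pdk4* (-0.015) in 4-18 against CN-10, *Pc* against 3-44 (-0.061), and *Pygl* (-0.49) and *Slc37a4* (-0.62) against shRNA3T. Without background correction they were *Pdk4* in 4-18 (0.025) and *Ppargc1a* in 3-44 (-0.067) against shRNA3T. *Fbp1* in shRNA3T against CN-10 was -0.10 with array weights and -0.081 without replicate 1 of every group, and *Slc37a4* in 4-18 against CN-10 was then 0.038. Leaving out 1 array gave -0.15 to 0.048 for *Pc* in 3-44, -0.13 to 0.067 for *Fbp1* and -0.0099 to 0.19 for *Pygl* in shRNA3T, all against CN-10, and -0.011 to 0.23 for *Slc37a4* in 4-18 against shRNA3T. The cause of these changes was not tested.

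Calls were gained by *Pck2* in 4-18 (-1.46 with 75th-percentile scaling, -1.44 unscaled, -1.10 without replicate 1 of every group), by *Pck1* in 4-18 unscaled (-1.0), by *Slc37a4* in 4-18 against 3-44 (-1.02) and *G6pc* in 4-18 against shRNA3T (-1.38) unscaled, by *Pdk4* in 4-18 with 75th-percentile scaling (1.55 against CN-10, 1.49 against 3-44), and by *Gys2* in 3-44 with 75th-percentile scaling (1.28), array weights (1.10) and without replicate 1 of every group (1.05). The unscaled gains stayed without replicate 4 of 4-18. Leaving out 1 array gained calls of *Gys2* and *Pygl*, as given in the Results. Scaling to the 75th percentile moved the median log2 fold change of all probes to 0.20 in 4-18 and -0.23 in shRNA3T. The unscaled values moved it to 0.15 in 4-18, or to -0.26 without replicate 4 of 4-18. Over all genes the calls in 4-18 were 687 higher and 929 lower, against 1695 and 1937 with 75th-percentile scaling 218 and 2812 unscaled, and 147 and 3964 unscaled without that array. In 3-44 they were 180 and 207, against 226 and 541 and against 57 and 133. In shRNA3T they were 315 and 313, against 478 and 765 and against 169 and 205.

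No label says that same-numbered arrays share an origin, and they were not treated as pairs. Same-numbered arrays of 2 groups correlated in their deviations by -0.11 to 0.44 (median 0.12, 24 pairs) and others by a median of -0.02 (72 pairs). The 6 pairs of replicate 1 were all at 0.17 or above, and 4 of 16 arrays correlated best with their own number in every other group. With the replicate number as a block the counts of called members were 4, 3 and 3 against CN-10 and 5, 6 and 2 between silenced groups, as without it. *Ppargc1a* outside 4-18, and *Pdk4* in CN-10 and 3-44, were not well above background, so only bounds can be given there. In 4-18 *Pdk4* was well above it on 1 array only, so its level is not measured either.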
